A study of Vitis vinifera with 6 samples.

Results

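The 301 genes described here are those that were low in 1 seedless grape seed trace and present in the other 2 traces of the same class. Genes were chosen by the measured RPKM of the 3 traces: trace 1, with 1 RPKM added, had to be under 0.25 of both trace 2 and trace 3, each also with 1 RPKM added, and traces 2 and 3 each had to reach 3 RPKM. RPKM is the read count scaled to gene model length and library size, so levels of different genes are given per length. The rule chose 301 of the 15153 genes with at least 3 RPKM in traces 2 and 3, which is 1.99%, out of 29536 genes with a readable value in all 6 libraries. The question asked of them was where traces 2 and 3 stood against the seeds: level, below or above.

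The libraries came from 6 different F1 hybrids of the table grape cross Red Globe × Crimson Seedless (Vitis vinifera), grown in 1 field. The 3 seedless hybrids carry the genotype label sdi+ and gave stenospermocarpic seed traces. The 3 seeded hybrids carry the label sdi- and gave seeds, although the titles of these samples spell their class "Seededless". All material was taken 4 weeks after anthesis from berries of 10 to 12 mm, and the contents of 12 to 50 fruits were pooled per RNA extraction. A trace or seed library therefore stands for 1 hybrid plant, and the sdi class, the hybrid and the kind of tissue vary together.

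Stenospermocarpy is the form of seedlessness in which fertilization takes place but the seed stops growing early. The endosperm and embryo degenerate, the seed coat does not harden, and a soft rudiment, the seed trace, remains in the berry. Seed content at this stage is a mixture of seed coat, endosperm and embryo, and its RNA in bulk reflects all of them. Fewer cells of a type and less RNA per cell cannot be told apart in such values.

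The identifiers in the deposited table come without gene names, and the RefSeq grapevine table at hand (assembly ASM3070453v1) matched 0 of them. Genes are therefore given by identifier, and no function is assigned to any of the 301. Chromosomes are read from the identifiers.

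Trace 1 stood apart from the rest over all genes. Across genes, its log2(RPKM + 1) values correlated with those of the other 5 libraries at 0.728 to 0.862, while those 5 correlated with each other at 0.866 or more. Recovered library totals were 7167559, 7470208 and 6576771 reads in traces 1, 2 and 3, against 7811602, 9267652 and 7494970 reads in seeds 1, 2 and 3, so trace 1 was not the shallowest. On a gene of 1 kb a single read was worth 0.108 to 0.152 RPKM. The median member rested on 11.5 reads in trace 1, 201.5 in trace 2 and 182 in trace 3, and 93 members had at most 3 reads in trace 1, where a level cannot be told from a few counts.

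The values of the traces chose the genes, so their size is a description without a test. The median member had 1.49 RPKM in trace 1, 23.7 in trace 2 and 26.0 in trace 3. The same genes had medians of 25.2, 26.5 and 23.4 RPKM in seeds 1, 2 and 3, which the rule did not use. Trace 1 listed 52 of the 301 at 0 and 128 under 1 RPKM, and it kept 42 at 10 RPKM or more. The ratio of trace 1 to the lower of traces 2 and 3, with 1 RPKM added to each, ran from 0.00588 to 0.249 with a median of 0.151, and 92 genes (30.6%) were under 0.1. Together the 301 genes took 0.255% of the RPKM sum of trace 1, 3.14% and 3.41% of the sums of traces 2 and 3, and 3.48%, 3.97% and 3.45% of those of seeds 1, 2 and 3.

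**Figure D1:**
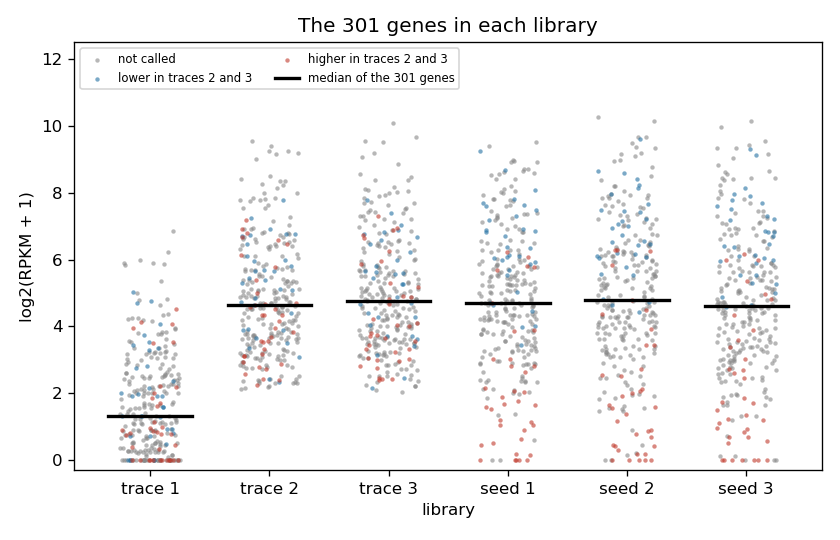
Levels of the 301 genes in each library on the log2(RPKM + 1) scale, 1 point per gene, coloured by the call of traces 2 and 3 against seeds, with a bar at the median. Trace 1 has a median of 1.49 RPKM, while the other 5 libraries have medians between 23.4 and 26.5 RPKM.

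Some of the most abundant transcripts of the set were among those low in trace 1. VIT_14s0060g02730 (chromosome 14) had the lowest ratio of all, 0.00588, and also one of the 3 highest levels in traces 2 and 3. It had 2.54 RPKM in trace 1, 602 and 1079 RPKM in traces 2 and 3, and 729, 1131 and 1132 RPKM in seeds 1, 2 and 3. Only 15 reads of this gene were counted in trace 1, against 3700 and 5841 in traces 2 and 3. VIT_18s0122g00420 (chromosome 18) had 62.5 RPKM in trace 1, 670 and 739 RPKM in traces 2 and 3, and 486, 572 and 349 RPKM in seeds. VIT_05s0077g01250 (chromosome 5) had 39.8 RPKM in trace 1, 587 and 819 RPKM in traces 2 and 3, and 677, 544 and 403 RPKM in seeds. These last genes were thus low in trace 1 only relative to a high level elsewhere.

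Others were at or next to 0 in trace 1. VIT_03s0038g03130 (chromosome 3) had no read in trace 1, 71.4 and 88.6 RPKM in traces 2 and 3, and 64.0, 74.3 and 80.6 RPKM in seeds. A limit of 3 reads puts trace 1 at least 296-fold lower than trace 2 for this gene. VIT_08s0007g00690 (chromosome 8) had 6 reads and 0.477 RPKM in trace 1, 216 and 290 RPKM in traces 2 and 3, and 253, 230 and 158 RPKM in seeds. For both genes the values of the 2 other traces overlapped those of the 3 seeds. The difference of traces 2 and 3 from seeds was 0.13 (95% interval -0.27 to 0.52, adjusted p = 0.627) for VIT_03s0038g03130 and 0.25 (-0.37 to 0.88, adjusted p = 0.534) for VIT_08s0007g00690 on the log2(RPKM + 1) scale.

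Among genes with at least 10 RPKM in traces 2 and 3, the values ran on without a gap at the limit of the rule. Just inside it, VIT_17s0000g04910 had 26.0 RPKM in trace 1, 108 and 107 RPKM in traces 2 and 3, and 222, 297 and 246 RPKM in seeds. VIT_07s0005g01790, also inside, had 2.03 RPKM in trace 1, 12.3 and 11.2 RPKM in traces 2 and 3, and 20.4, 15.2 and 16.0 RPKM in seeds. Their ratios were 0.249 and 0.248. Just outside, at a ratio of 0.254 each, VIT_03s0063g01950 had 1.90 RPKM in trace 1, 10.4 and 12.8 RPKM in traces 2 and 3, and 12.3, 9.07 and 7.59 RPKM in seeds, and VIT_10s0003g01550 had 42.2 RPKM in trace 1, 169 and 335 RPKM in traces 2 and 3, and 753, 822 and 1137 RPKM in seeds.

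Traces 2 and 3 were, for most of the 301 genes, not distinguishable from the seeds, and the genes that were called went in both directions. A limma fit over the 19107 genes that reached 1 RPKM in 2 or more of the 5 libraries compared traces 2 and 3 with seeds 1 to 3, leaving out trace 1. At an adjusted p under 0.05 it called 37 of the 301 genes higher in traces 2 and 3 than in seeds (12.3%, where 8.93% of all genes tested were higher) and 33 lower (11.0%, against 6.45%). In either direction 70 genes were called, 23.3% against 15.4% of all genes tested and 15.6% of the 14852 other genes with at least 3 RPKM in traces 2 and 3. The remaining 231 were not called. The rule used the levels of traces 2 and 3 but no seed value. Of the 37 higher genes, 8 reached 1 RPKM in traces 2 and 3 only and passed the filter through them, so these had to differ. Among the 293 members with at least 1 RPKM in some seed library, 29 were higher (9.9%) and 33 lower (11.3%). The same restriction, made after the data were seen, left 7.85% higher and 6.55% lower among the other genes with at least 3 RPKM in traces 2 and 3, and 6.54% and 6.69% among all genes tested. In either direction 21.2% were called against 14.4% and 13.2%. The members' shares of higher and of lower genes both lay above these backgrounds, with no test of the difference. The rule asked for a level in traces 2 and 3, so the calls were not independent of the choice.

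The set had no common direction. The median difference of traces 2 and 3 from seeds was -0.01 on the log2(RPKM + 1) scale, against -0.02 over all genes tested, with 150 genes above 0 and 151 below. The spread was wider than the background, with quartiles of -0.51 and 0.70 against -0.34 and 0.37. The difference was within 1 log2 unit, a 2-fold change, for 214 genes (71.1%), against 85.3% of all genes tested. It was over 1 for 54 (17.9%, against 10.4% of all genes tested) and under -1 for 33 (11.0%, against 4.35%).

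By position alone, both traces were above every seed library in 73 genes (24.3%, against 24.9% of all genes tested), below every one in 71 (23.6%, against 25.5%) and inside the seed range in 70 (23.3%, against 16.2%). The other 87 (28.9%, against 33.3%) were mixed. The shares above and below were thus close to those of all genes.

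A missed call does not show that a gene was level. The 95% interval of the difference lay wholly within 1 log2 unit of 0 for 89 genes (29.6%), against 55.9% of all genes tested, and 86 of these were not called. In simulated data of the same size the fit found 66 of 100 genes changed by 2 log2 units and 15 of 100 changed by 1. Only these genes were changed there and 18907 were not, while the real fit called 15.4% of all genes tested. The changed genes were drawn without regard to the 301, so these are not the rates for the 301 genes. The calls also leaned on having both traces: with trace 3 alone the fit called 7 genes higher and 7 lower, with trace 2 alone it called 2 higher and 7 lower, and without seed 2 it called 33 higher and 17 lower.

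**Figure D2:**
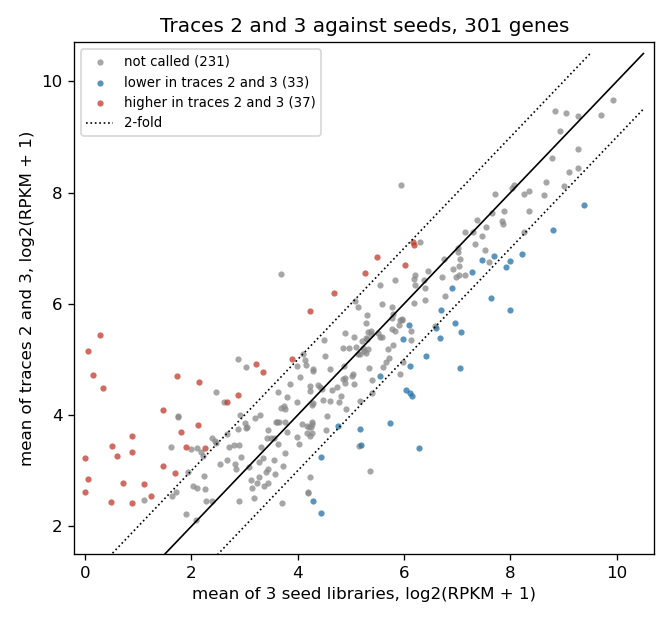
Mean log2(RPKM + 1) of traces 2 and 3 against the mean of the 3 seed libraries for the 301 genes, with the line of equality and lines at a 2-fold change. The 37 higher genes lie mostly among genes low in seeds, and the 33 lower genes are spread over the middle and upper part of the range.

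**Figure D3:**
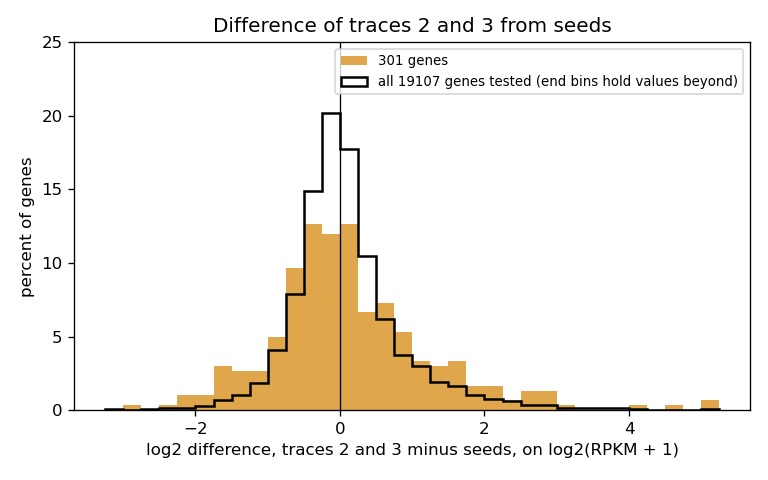
Distribution of the log2(RPKM + 1) difference of traces 2 and 3 from seeds, in percent of the 301 genes (filled) and of all 19107 genes tested (line). Both centre near 0, with medians of -0.01 and -0.02, and the 301 genes spread wider.

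The 3 genes closest to no difference, among those with a seed mean of at least 10 RPKM, show what level means here. VIT_11s0103g00190 (chromosome 11) had 26.6 RPKM in trace 1, 141 and 172 RPKM in traces 2 and 3, and 121, 184 and 168 RPKM in seeds, a difference from seeds of 0.00 (95% interval -0.53 to 0.54, adjusted p = 0.993). VIT_15s0048g02250 (chromosome 15) had 0.683 RPKM in trace 1, 23.6 and 34.1 RPKM in traces 2 and 3, and 34.5, 37.9 and 17.1 RPKM in seeds, with a difference of 0.01 (-0.89 to 0.90, adjusted p = 0.993). VIT_17s0000g01000 (chromosome 17) had 3.37 RPKM in trace 1, 25.5 and 17.4 RPKM in traces 2 and 3, and 19.0, 21.8 and 22.3 RPKM in seeds, with a difference of 0.01 (-0.47 to 0.48, adjusted p = 0.985). In all 3 the values of traces 2 and 3 overlapped those of the seeds, and trace 1 was under every seed library. The most abundant gene, VIT_14s0060g02730, was not called either, with a difference of -0.28 (SE 0.35, 95% interval -1.13 to 0.57, adjusted p = 0.626).

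The 29 genes higher in traces 2 and 3 that had at least 1 RPKM in some seed were mostly weakly expressed in seeds. Their median was 0.856 RPKM in trace 1, 19.1 and 16.3 RPKM in traces 2 and 3, and 3.18, 3.21 and 4.54 RPKM in seeds. The differences ran from 0.69 to 4.15 with a median of 1.56, and 26 exceeded 1. In all 29 both traces were above every seed library, as in all 37 genes called higher, so this adds little to the call. Trace 1 was under every seed library in 21 of the 29, and in the others it was not below all seeds.

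The other 8 were nearly silent outside traces 2 and 3, with at most 0.946 RPKM in trace 1, 4.37 to 94.4 RPKM in trace 2, 4.23 to 57.0 RPKM in trace 3, and at most 0.868, 0.732 and 0.905 RPKM in seeds 1, 2 and 3. They include the 3 largest differences and are described without a test. VIT_06s0004g02560 (chromosome 6) had 0.946 RPKM in trace 1, 31.2 and 57.0 RPKM in traces 2 and 3, and 0, 0.122 and 0.603 RPKM in seeds, which is 206 and 332 reads in traces 2 and 3 against 0, 1 and 4 in seeds. VIT_12s0028g02740 (chromosome 12) had 0 RPKM in trace 1, 94.4 and 12.1 RPKM in traces 2 and 3, and 0.119, 0 and 0 RPKM in seeds. Trace 2 was far above trace 3 in this gene. Its neighbour VIT_12s0028g02700 had 0 RPKM in trace 1, 40.7 and 15.5 RPKM in traces 2 and 3, and 0, 0.338 and 0 RPKM in seeds. For genes this near 0 in seeds the size of a log2(RPKM + 1) difference depends on the added 1 RPKM.

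In the 33 genes lower in traces 2 and 3, trace 1 was lowest, traces 2 and 3 lay between, and the seeds were highest, an order that the rule and the call fix between them. Their median was 2.76 RPKM in trace 1, 41.2 and 42.9 RPKM in traces 2 and 3, and 81.0, 104.8 and 87.9 RPKM in seeds. The differences of traces 2 and 3 from seeds ran from -2.88 to -0.47 with a median of -1.31, and 24 were under -1. Seed 2 was the highest seed in 22 of the 33, where it was the highest in 43.5% of the 301 and in 36.2% of all genes tested.

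VIT_19s0015g02070 (chromosome 19) had 0.889 RPKM in trace 1, 7.46 and 12.2 RPKM in traces 2 and 3, and 66.4, 65.6 and 104 RPKM in seeds, a difference of -2.88 (SE 0.28, adjusted p = 0.00469). VIT_00s0317g00160, on no placed chromosome, had 0.654 RPKM in trace 1, 38.4 and 20.0 RPKM in traces 2 and 3, and 81.0, 180 and 158 RPKM in seeds, a difference of -2.21 (SE 0.42, adjusted p = 0.0233). VIT_19s0014g00270 (chromosome 19) had 0 RPKM in trace 1, 4.04 and 3.45 RPKM in traces 2 and 3, and 15.1, 20.5 and 28.4 RPKM in seeds, a difference of -2.19 (SE 0.27, adjusted p = 0.00801). In each of the 3 genes the traces and the seeds did not overlap, which was a condition of naming them. VIT_00s0317g00160 lost its call when any 1 of 4 libraries was left out (adjusted p from 0.0558 to 0.119), and VIT_19s0014g00270 when trace 3 was left out (adjusted p = 0.0575).

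**Figure D4:**
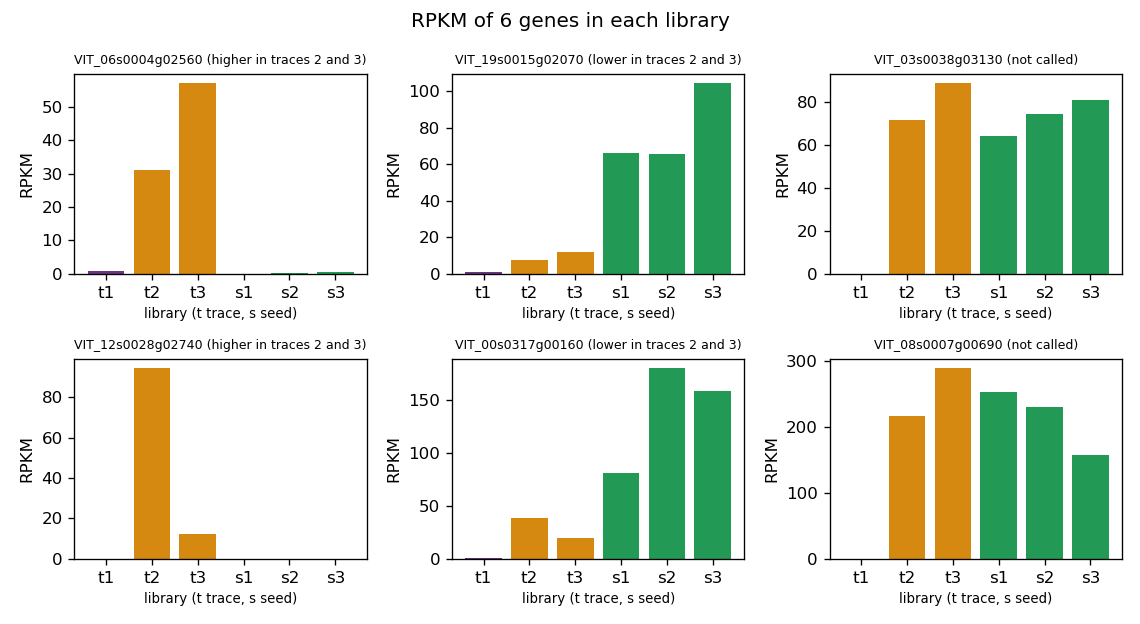
RPKM of 6 named genes in each library, traces (t) left of seeds (s), each panel with its own axis starting at 0. The left pair had under 1 RPKM in trace 1 and in every seed, the middle pair was called lower in traces 2 and 3 than in seeds, and the right pair was not called, while trace 1 is near 0 in all 6.

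With trace 1 put back, the class comparison of 3 traces with 3 seeds carried almost none of these genes. The fit over 18749 genes called 0 of the 293 members it could test higher in traces (background 7.18%) and 3 lower (background 5.1%). The 3 were VIT_19s0015g02070, VIT_19s0014g00270 and VIT_02s0025g00740, the last named after its values were seen, with differences of -3.71, -2.94 and -2.91 and adjusted p of 0.0228, 0.0334 and 0.0373. A further count at an unadjusted p under 0.05 gave 39 of the 293, where 5931 of all 18749 genes in this fit were under it. The rule made trace 1 low against the other traces, which lowers the trace mean and widens the trace spread in this fit. The choice alone therefore left little room for calls, least of all higher ones. The counts, their p-values and the median difference of -1.17 in this fit are thus a description of the choice. Setting them against the backgrounds is no test. The 37 and 33 genes above came from a fit without trace 1, but the rule had also used the levels of the other traces. Those calls are therefore not independent of the choice either, although no seed value entered the rule.

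The seeds themselves varied in these genes, and no seed value had entered the rule. The highest and lowest seed library were over 2-fold apart, with 1 RPKM added, in 99 of the 301 genes (32.9%), against 7.59% of the other genes with at least 3 RPKM in traces 2 and 3. They were over 4-fold apart in 25 (8.31%), against 1.18%. The median fold between them was 1.64 against 1.28. Seed 2 was the highest seed in 131 genes (43.5%, against 37.8% of the other genes) and the lowest in 58 (19.3%, against 34.0%). Seed 3 was the lowest in 128 (42.5%, against 29.8%) and seed 1 in 115 (38.2%, against 36.2%), the last close to the background. The share at 10 RPKM or more in every seed library was 62.8%, against 61.9% of the other genes. The share with some seed library under 1 RPKM was 10.6%, against 3.46%.

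Named after their values were seen, the genes with the widest seed spread were low in different seeds. The neighbours VIT_04s0008g04000 and VIT_04s0008g03990 (chromosome 4) were listed at 0 in trace 1 and again in seed 2. VIT_04s0008g04000 had 0 RPKM in trace 1, 40.4 and 208 RPKM in traces 2 and 3, and 127, 0 and 15.7 RPKM in seeds. VIT_04s0008g03990 had 0 RPKM in trace 1, 15.8 and 61.2 RPKM in traces 2 and 3, and 48.4, 0 and 7.05 RPKM in seeds. These neighbours ran in parallel through all 6 libraries. VIT_07s0141g00480 (chromosome 7) had 8.48 RPKM in trace 1, 303 and 257 RPKM in traces 2 and 3, and 274, 123 and 5.90 RPKM in seeds, so that seed 3 was as low as trace 1. VIT_05s0020g04380 (chromosome 5) had 3.94 RPKM in trace 1, 29.3 and 27.0 RPKM in traces 2 and 3, and 17.6, 25.8 and 0.0828 RPKM in seeds, again low in seed 3. VIT_07s0130g00250 (chromosome 7) had 1.48 RPKM in trace 1, 22.0 and 28.2 RPKM in traces 2 and 3, and 2.97, 78.8 and 106 RPKM in seeds, where seed 1 was low. None of these 5 was called, and of the 25 genes with seeds over 4-fold apart 1 was, VIT_04s0008g04770 (difference 2.97, SE 0.56, adjusted p = 0.0228).

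Genes low in 1 library of a class were most frequent in trace 1. The rule, turned in the same way on each other library within its class, chose 138 genes low in trace 2 and 36 low in trace 3 (0.925% and 0.242% of the genes at 3 RPKM in the other 2 traces). Among the seeds it chose 29, 49 and 44 genes low in seeds 1, 2 and 3 (0.201%, 0.337% and 0.302%). Of the 301 genes, 14 were also among those low in a seed. The counts for the other libraries were added after the data were seen and are given without a test. Trace 1 already stood apart from the other libraries over all genes, so its highest count was no independent finding. In the opposite direction, 446 genes with at least 3 RPKM in trace 1 were over 4 times both other traces, 1 RPKM added to each, against 47 found in this way for trace 2 and 47 for trace 3. Among the seeds the same count gave 36, 25 and 40 genes for seeds 1, 2 and 3.

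The genes lay on all 19 chromosomes, with 16 more on unplaced scaffolds. As a share of the genes with at least 3 RPKM in traces 2 and 3, which is 1.99% over all, they ranged from 0.774% on chromosome 16 to 2.85% on chromosomes 3 and 19, with 17 and 18 genes. Chromosome 14 held the most, 26 (2.59%). Counting members of 1 scaffold whose identifier numbers lay at most 50 apart, 72 genes fell into 28 runs, of which 21 held 2 genes. Neighbouring genes can share sequence, and how reads of near-identical copies were counted is not given. The genes of a run are therefore not taken as independent observations.

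The longest run held 10 of the 11 listed genes from VIT_14s0060g01780 to VIT_14s0060g01880 on chromosome 14. Its median was 3.98 RPKM in trace 1, 47.2 and 53.4 RPKM in traces 2 and 3, and 59.1, 109.7 and 67.0 RPKM in seeds. VIT_14s0060g01780 had 7.12 RPKM in trace 1, 359 and 236 RPKM in traces 2 and 3, and 291, 506 and 452 RPKM in seeds (difference of traces 2 and 3 from seeds -0.47, adjusted p = 0.335). VIT_14s0060g01790 had 4.25 RPKM in trace 1, 22.3 and 29.8 RPKM in traces 2 and 3, and 44.2, 86.8 and 54.8 RPKM in seeds (-1.17, adjusted p = 0.0511). Traces 2 and 3 did not overlap the seeds in VIT_14s0060g01790 but did in VIT_14s0060g01780. VIT_14s0060g01800 had 2.13 RPKM in trace 1, 14.6 and 15.1 RPKM in traces 2 and 3, and 19.3, 29.7 and 19.4 RPKM in seeds (-0.56, adjusted p = 0.141). The calls in the run were 3, all lower: VIT_14s0060g01810, VIT_14s0060g01830 and VIT_14s0060g01850, with differences of -0.80, -1.31 and -1.25 (adjusted p of 0.0486, 0.0211 and 0.0299; named after their values were seen). VIT_14s0060g01870 went the other way at 0.81 (adjusted p = 0.168). VIT_14s0060g01790 lay next to the threshold. It was called lower under 6 other settings, quantile normalization and median scaling among them, and not under the rest.

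**Figure D5:**
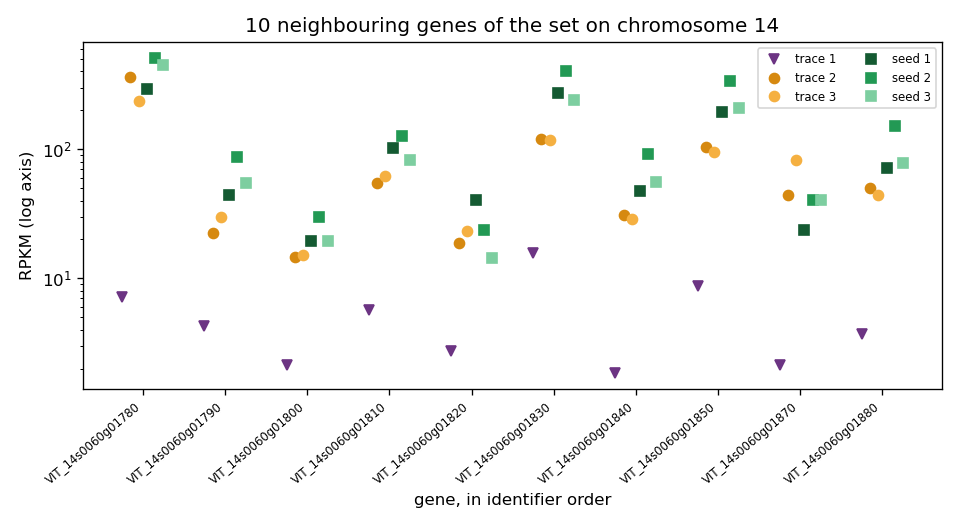
RPKM on a log axis of the 10 neighbouring genes of the set from VIT_14s0060g01780 to VIT_14s0060g01880 in each library. Trace 1 is the lowest point for every gene, and in 7 of the 10 both other traces lie under all 3 seeds.

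The next longest run was 5 of the 8 genes from VIT_02s0154g00130 to VIT_02s0154g00200 on chromosome 2, nearly all without a read in trace 1. VIT_02s0154g00130 had 0 RPKM in trace 1, 11.6 and 26.9 RPKM in traces 2 and 3, and 22.6, 31.4 and 25.5 RPKM in seeds (-0.54, adjusted p = 0.335). VIT_02s0154g00160 had 0 RPKM in trace 1, 3.78 and 6.04 RPKM in traces 2 and 3, and 1.07, 1.24 and 1.83 RPKM in seeds (1.30, adjusted p = 0.0316), and it was the only gene of the run called higher. That call was lost when any 1 of the 5 libraries was left out (adjusted p from 0.0509 to 0.200). VIT_02s0154g00170 had 0 RPKM in trace 1, 4.19 and 6.98 RPKM in traces 2 and 3, and 4.09, 2.58 and 3.37 RPKM in seeds (0.58, adjusted p = 0.210). The other 4 genes of the run were not called.

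None of 22 identifiers recalled from the published grapevine catalogue for ovule identity, phenylpropanoid and tannin genes was among the 301. The rule chose only 1.99% of the genes with at least 3 RPKM in traces 2 and 3. Finding none in so short a list therefore says nothing about these genes. VIT_11s0016g01320, VIT_06s0004g00570 and VIT_16s0039g02230 were under 3 RPKM in traces 2 and 3, so the rule could not choose them. These identifiers were not matched to any annotation here. The nearest to the limit, VIT_18s0041g01880 (chromosome 18), had 47.5 RPKM in trace 1, 197 and 177 RPKM in traces 2 and 3, and 272, 288 and 287 RPKM in seeds, a ratio of 0.272. It was lower in traces 2 and 3 than in seeds, with a difference of -0.59 (SE 0.13, adjusted p = 0.0373). This was not particular to it. Most genes of the list were called lower in the same fit, and each of the others so called differed by more. The 18 others with at least 3 RPKM in traces 2 and 3 had ratios of 0.587 to 3.47, so none of these was as low in trace 1 as the limit asks.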

How the data were processed

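The deposited table gives 1 RPKM value per gene and library, computed by the authors. Per the submitters' processing notes TopHat2 2.0.13, HTSeq 0.5.4p5 and edgeR 2.2.6 were used. The build and the settings are not given in the sources used here. Of 29548 listed genes, 12 were not used because a number in them has a repeated decimal point, and for 1 of these membership could not be decided.

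Differences were fitted with limma 3.58.1 in R 4.3.3 on log2(RPKM + 1), with a trended variance, two-sided tests and Benjamini-Hochberg adjustment over all genes tested, at a threshold of 0.05. Differences are traces minus seeds. A pseudocount of 1 understates the change of low genes. The p-values measure the spread between the hybrids in each fit, 1 library each. The main fit leaves out trace 1, so its trace spread comes from traces 2 and 3 alone. Across genes traces 2 and 3 correlated at 0.944, and trace 1 with them at 0.847 and 0.862. The p-values of the main fit therefore do not cover the spread between all seedless hybrids. Whole reads were recovered from the RPKM steps for 22032 of 24536 genes above 0 (89.8%, tolerance 0.005 of a read), including 300 members. The fit and the recovery were tested on simulated data. Limits of 3 reads cover counting error only.

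The genes and lists were chosen with earlier results of these data known. Named genes are those with the highest levels in traces 2 and 3, the largest and smallest differences from seeds, the lowest ratios, the values next to the limit and the longest runs. Those next to the limit were taken among genes with at least 10 RPKM in traces 2 and 3. Alternatives changed the rule, pseudocount, filter, scaling and variance model, used a replicate block or recovered reads, added trace 1, or left out 1 library.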

Additional observations from a re-analysis of the deposited data

How the results depend on the processing

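The rule chose 864 genes at a fraction of 0.5 and 119 at 0.125. Under other scalings it chose 298 (297 of the 301 among them) and 343 (299 among them), and with a pseudocount of 0.1 it chose 381. Counts of the 301 called higher and lower were 28 to 38 and 29 to 40 under all other pseudocounts, filters, scalings, variance models, recovered reads and the replicate block. With 1 of the 5 libraries left out they ran from 2 to 34 higher and from 7 to 33 lower, where a lone trace is assumed to vary like the other libraries. All genes called ran from 218 to 1187 higher and from 181 to 781 lower, and a filter of 1 RPKM in 3 libraries gave 1130 higher. The genes inside the seed range ran from 28 to 111. With trace 1 added, 2 genes were above and 5 inside the seed range, 0 were called higher and 3 lower, and the median difference was -1.17. In the class fit, leaving out 1 library gave 0 to 3 of the 301 lower, 304 to 637 of all genes higher and 95 to 463 lower.

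Replicate numbers name different hybrids, and the labels state no pairing. Whether libraries of the same number shared a processing step is not given and was not tested. Deviations of same-numbered libraries correlated at 0.0662, 0.179 and 0.0979, and each library correlated best with its own number. With the replicate block 38 members were higher and 40 lower than seeds, and 1265 and 1041 of all genes. In the class fit the block gave 7 members lower and 1017 and 697 of all genes.

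Values that changed sign were of genes not called in either fit. With 1 library left out, VIT_14s0060g02730 ran from -0.70 to 0.14, VIT_11s0103g00190 from -0.18 to 0.15, VIT_17s0000g01000 from -0.26 to 0.27, VIT_15s0048g02250 from -0.34 to 0.26, VIT_02s0154g00130 from -1.11 to 0.035 and VIT_03s0038g03130 from -0.024 to 0.28. VIT_14s0060g02730 was at 0.061 under quantile normalization and VIT_15s0048g02250 at -0.014 on recovered reads. VIT_11s0103g00190 was at -0.0019 under median scaling and -0.18 with the block, and VIT_17s0000g01000 at -0.00064 with library weights and -0.061 with the block. With trace 1 added, VIT_18s0122g00420 gave -0.54, VIT_05s0077g01250 -0.97, VIT_11s0103g00190 -0.83, VIT_15s0048g02250 -1.37, VIT_17s0000g01000 -0.77, VIT_03s0063g01950 -0.45, VIT_08s0007g00690 -2.22, VIT_03s0038g03130 -1.98 and VIT_02s0154g00170 -0.32, since the rule chose most of these as low in trace 1. Apart from this construction the cause was not tested.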
